A study of Mus musculus with 4 samples.

Results

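The suppressor of cytokine signaling (SOCS) family is a group of intracellular inhibitors, several of which are induced by a cytokine whose signal they then damp. Its 8 genes in the mouse, Socs1 to Socs7 and Cish, were read by gene name from a deposited table of 22554 genes, and all 8 were found. RNA came from ILC2s, the group 2 innate lymphoid cells, sorted from the lungs of BALB/c mice aged 6 weeks and kept overnight with IL-2, IL-7 and IL-33. Cells of the control group received vehicle, and cells of the other group received compound 5D, a small molecule that blocks the Orai calcium channels, with 2 libraries in each group, and the sources do not say how many mice gave the cells of a library. The comparison therefore asks what 5D did to these genes in cells that all 3 cytokines were stimulating. With no other blocker and no Orai-deficient cells here, Orai blockade cannot be told apart from other effects of the compound. No unstimulated cells are among the libraries. The family was chosen because Socs3 was known to be lower with 5D in these same libraries, so its own differences are given as a description, with standard errors and without p-values for single members.

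Cytokine receptors of the IL-2 and IL-7 type signal through JAK kinases, which phosphorylate STAT factors, and STAT factors then switch on SOCS genes among others. Each SOCS protein carries an SH2 domain, which binds phosphorylated tyrosines, and a SOCS box, which recruits an E3 ubiquitin ligase. SOCS1 and SOCS3 also have a short kinase inhibitory region with which they block JAK activity, whereas CIS, the product of Cish, and SOCS2 compete at the receptors. In lymphoid cells Cish is a well-known target of STAT5, and SOCS3 is best known for limiting signals through gp130, the receptor chain shared by IL-6, LIF and oncostatin M.

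Promoter sequences from RefSeq (GRCm38.p6) were available for 4 of the 8 genes, and those of the 3 members with the highest RNA levels per kilobase are shown because STAT and IRF factors are the known regulators of these genes. Each window runs from 250 bases before to 50 bases after the RefSeq start of the gene and is written 5′ to 3′ on the strand of the gene. Capitals mark matches to the STAT motif TTCNNNGAA, to its longer form TTCNNNNGAA, or to the IRF motif GAAANNGAAA, searched on both strands. The windows lie at chr9:107296409-107296708 on the plus strand for Cish, at chr11:117969317-117969616 on the minus strand for Socs3 and at chr16:10785487-10785786 on the minus strand for Socs1.
Cish: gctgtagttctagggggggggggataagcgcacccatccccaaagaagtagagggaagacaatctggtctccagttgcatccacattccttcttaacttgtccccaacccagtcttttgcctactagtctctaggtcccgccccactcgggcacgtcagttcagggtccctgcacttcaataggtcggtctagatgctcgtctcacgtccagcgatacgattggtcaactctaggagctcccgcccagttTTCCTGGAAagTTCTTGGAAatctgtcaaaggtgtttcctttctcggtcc
Socs3: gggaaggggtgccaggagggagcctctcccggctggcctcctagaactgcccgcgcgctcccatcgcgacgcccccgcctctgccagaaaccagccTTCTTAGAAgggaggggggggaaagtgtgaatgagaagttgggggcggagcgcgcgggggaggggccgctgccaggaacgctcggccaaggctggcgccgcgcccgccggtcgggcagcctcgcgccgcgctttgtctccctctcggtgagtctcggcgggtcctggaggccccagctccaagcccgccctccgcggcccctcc
Socs1: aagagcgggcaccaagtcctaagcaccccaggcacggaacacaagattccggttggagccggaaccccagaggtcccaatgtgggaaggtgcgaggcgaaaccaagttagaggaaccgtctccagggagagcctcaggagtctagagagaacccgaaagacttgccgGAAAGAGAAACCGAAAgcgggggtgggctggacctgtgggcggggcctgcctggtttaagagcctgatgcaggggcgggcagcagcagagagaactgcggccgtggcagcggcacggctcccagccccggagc

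Cish held a pair of STAT motifs, TTCCTGGAA from base 1 to 9 and TTCTTGGAA from base 12 to 20 after the start, so the matches lay 2 bases apart. Socs3 held 1 match, TTCTTAGAA, from base -154 to -146. Of 32851 windows of the same length in the RefSeq table, 8.30% held TTCNNNGAA on either strand. The Socs1 window had no match to it but held 2 overlapping matches to the IRF motif, GAAAGAGAAA from base -83 to -74 and GAAACCGAAA from base -77 to -68, a motif present in 3.44% of windows. The longer STAT form, present in 6.95% of windows, was in none of the 4 windows, and neither was the AP-1 motif TGANTCA, present in 7.81%. GGAAA, the core bound by NFAT, the calcium-dependent factor, was found in all 4 windows and in 61.3% of all windows. It overlapped both STAT matches of Cish, at bases 6 to 10 and 17 to 21, and on the opposite strand the first of them, at bases -1 to 4. Both STAT matches end in GGAA, which is part of GGAAA. The Socs4 window held it on the opposite strand only, and held no STAT or IRF match. These are matches of letters and were not tested as binding sites.

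The libraries held 20096555 to 28697265 counts on genes. After scaling by the upper quartile and removal of genes with low counts, 17650 genes remained and all 8 family members were among them. A level here is a normalized CPM value, a gene's share of the scaled library in counts per 1000000. Differences are log2 fold changes of 5D over vehicle with their standard error (SE) from edgeR's quasi-likelihood fit over all genes. The sorted cells carried ILC2 markers, with all 14 listed genes at a mean of at least 1 normalized CPM and a summed level of 12961 to 13019 normalized CPM with vehicle and 12110 to 12673 with 5D. Of the 14, 4 had lower values at an unadjusted p-value under 0.05, Il2ra, Klrg1, Il5 and Thy1, beside 3.84% of all genes. Higher values were seen for 1, Il1rl1, beside 3.50% of all genes. With edgeR 0 passed the adjusted threshold, while Il2ra did with DESeq2's Wald test and with limma-voom. Il5 alone made up 4597 normalized CPM of the sum on average. Markers of other cells were far lower. Summed over each list, they reached 25.6 to 27.7 normalized CPM for T cells over the 4 libraries, 46.0 to 70.6 for NK cells, 13.6 to 19.4 for B cells, 3.36 to 7.60 for myeloid cells, 2.25 to 5.55 for mast cells and basophils and 43.5 to 49.9 for epithelial, endothelial and stromal cells. Most of the T cell sum was Cd3g, and listed at 0 were Cd4 of the T cell list, S100a9 of the myeloid list, Mcpt4 and Ms4a2 of the mast cell and basophil list and Scgb1a1, Col3a1 and Pdgfra of the last list. At a mean of at least 1 normalized CPM were 2 of 6 T cell markers, 2 of 5 NK cell markers, 1 of 5 B cell markers, 1 of 8 myeloid markers, 2 of 5 mast cell and basophil markers and 2 of 8 of the last list. Most of the NK cell sum was Gzma, which had 48.4 and 44.7 normalized CPM with vehicle and 70.3 and 52.4 with 5D, and was past an unadjusted p-value of 0.05, as was Pecam1 with lower values. The part of these cells in the results was not tested. In bulk RNA, fewer cells that express a gene cannot be told apart from less of its RNA per cell.

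The family spanned a wide range of levels in these ILC2s. Scaled to the length of their exons in GENCODE M21, Socs1 was highest at 224 ± 5.08 normalized CPM per kilobase (SD over the 4 libraries), followed by Cish at 80.4 ± 3.05 and Socs3 at 49.6 ± 14.1. Socs2 was next at 9.55 ± 0.359, Socs4 and Socs6 had 3.04 ± 0.316 and 2.30 ± 0.346, and Socs7 and Socs5 had 0.779 ± 0.118 and 0.736 ± 0.168. The ranges of neighbors in this order did not overlap over the 4 libraries, except those of Socs7 and Socs5. The order was the same with vehicle and with 5D. With the longest transcript as the length, the first 4 kept their places, while Socs6 came before Socs4 and Socs5 before Socs7, since the exons of Socs6 summed over its 9 transcripts measure 11349 bases against 6036 in its longest transcript. The wide spread of Socs3 came from the groups, at 61.7 ± 3.31 per kilobase in vehicle libraries and 37.5 ± 0.661 in 5D libraries (SD over 2).

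**Figure D1:**
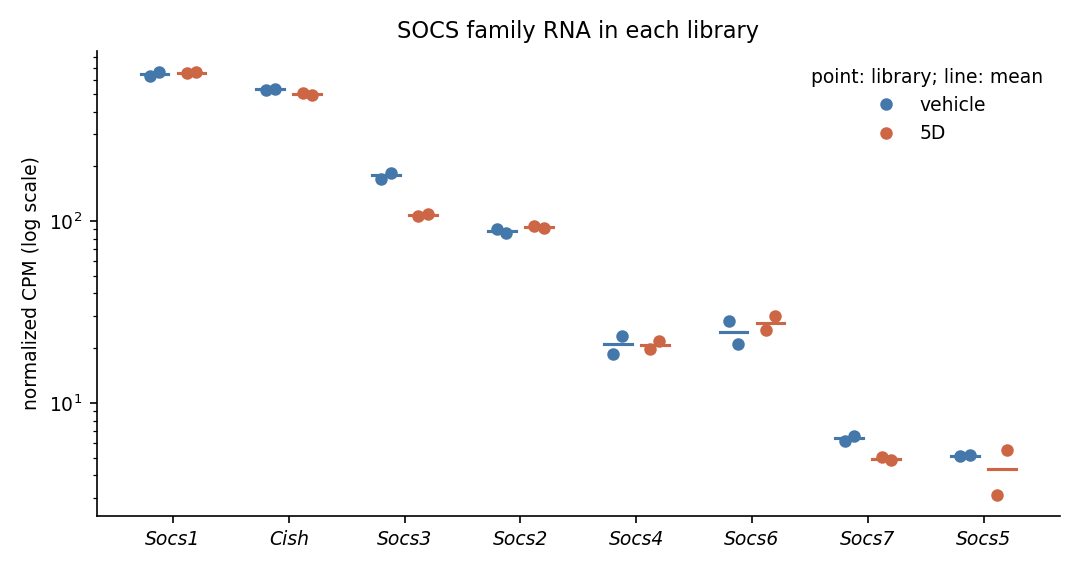
Normalized CPM (log axis) of the 8 SOCS family genes, ordered by their level per kilobase, with 1 point per library and a line at the mean of each group of 2. Only for Socs3 is the gap between the groups wide at this scale, with 172 and 185 with vehicle and 107 and 110 with 5D.

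Across the family, 5 members had lower and 3 had higher estimates with 5D. Their median was -0.047 on the log2 scale, beside -0.0016 over all 17650 genes, of which 50.4% were lower. With TMM normalization, limma-voom or the replicate block 4 members were lower, since Socs4 lay next to 0, and 3 to 6 were with 1 library left out. Without Socs3 the median of the other 7 was -0.0011. At an adjusted p-value under 0.05, 1 member, Socs3, was past the threshold, beside 0.0963% of all genes, which are 17 genes, 12 of them with lower and 5 with higher levels in 5D. At an unadjusted p-value under 0.05, 2 members were lower, Socs3 and Cish, beside 3.84% of all genes, and 0 were higher, beside 3.50%. These p-values measure only the spread between the libraries of a group, since nothing says that they came from separate mice or cultures. The groups did not overlap for 3 members with lower 5D values, Socs3, Cish and Socs7, beside 18.8% of all genes, nor for 1 with higher values, Socs2, beside 18.7%, or together 37.6% of all genes. They overlapped for the other 4 members. Because the family was chosen on this comparison, these counts say nothing beyond the values themselves.

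Socs3 (ENSMUSG00000053113.3, chromosome 11 of mm10 from 117966079 to 117970047) encodes the inhibitor that binds both gp130 and JAK kinases. Its counts were 3987 and 3706 with vehicle, and 2907 and 3140 in the larger libraries from 5D-treated cells. In normalized CPM this was 172 and 185 with vehicle and 107 and 110 with 5D. Both 5D libraries thus lay well below both vehicle libraries. The mean went from 178 ± 9.57 to 108 ± 1.91 (SD, n = 2 each), and the log2 fold change was -0.72 (SE 0.062), which leaves 60.8% of the vehicle level. The replicates differed by 0.11 on the log2 scale with vehicle and 0.036 with 5D, where counting error alone gives 0.033 and 0.037. Leaving out 1 library at a time gave log2 fold changes from -0.78 to -0.66. Of the 8737 genes with a mean of at least 10 normalized CPM, 5 had a log2 fold change as low as that of Socs3 or lower, Socs3 itself included, and 20 had one of -0.5 or lower.

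The same Socs3 counts can be read as a share of the family's counts, which does not depend on how the libraries were scaled to each other. The family was chosen on this difference, so the share is a description and no independent support. Socs3 took 11.6% of all SOCS family counts in vehicle replicate 1 (exact Clopper-Pearson 95% interval 11.3% to 11.9%) and 12.2% in vehicle replicate 2 (11.8% to 12.5%). In the 5D libraries it took 7.60% (7.34% to 7.87%) and 7.72% (7.46% to 7.98%). The intervals cover counting error only, since reads amplified by PCR are not independent molecules. The difference between the group means was -4.22 percentage points and lay between -4.49 and -3.94 with 1 library left out at a time. For every 100 counts of Socs1 there were 27.2 and 28.1 counts of Socs3 with vehicle and 16.5 and 16.6 with 5D. Set against 100 counts of Cish, Socs3 had 32.4 and 34.5 counts with vehicle and 21.2 and 22.2 with 5D. Socs1 and Cish together took 78.3% and 78.5% of the family's counts with vehicle and 81.9% and 81.4% with 5D.

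**Figure D2:**
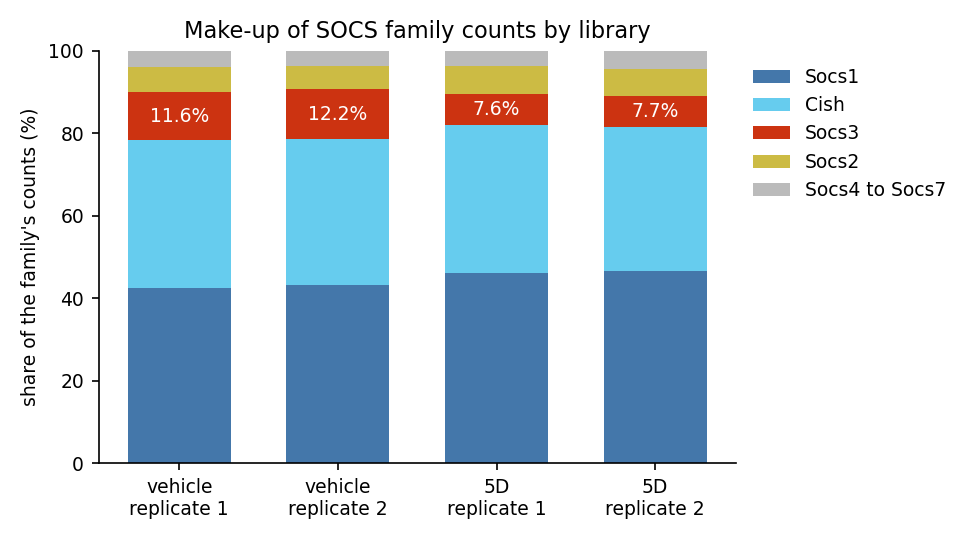
Share of the SOCS family's summed counts (%) taken by each member in each of the 4 libraries, with Socs4 to Socs7 pooled. The printed share is that of Socs3, at 11.6% and 12.2% with vehicle and 7.6% and 7.7% with 5D.

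Socs1 (ENSMUSG00000038037.5, chromosome 16 from 10782240 to 10785536) encodes the other direct inhibitor of JAK kinases. Its levels were 630 and 660 normalized CPM with vehicle and 650 and 663 with 5D, so that the groups overlapped. The log2 fold change was 0.026 (SE 0.042, 95% interval -0.065 to 0.12.) Socs1 was the member with the highest level and was measured from 13201 to 18957 counts per library. Without vehicle replicate 1 the estimate was -0.0099.

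Cish (ENSMUSG00000032578.7, chromosome 9 from 107296026 to 107302784), whose product CIS limits signals of receptors that use STAT5, had 529 and 537 normalized CPM with vehicle and 504 and 495 with 5D. The 5D libraries lay below the vehicle libraries by a small margin. The means were 533 ± 5.28 and 500 ± 6.15 (SD, n = 2 each), and the log2 fold change was -0.092 (SE 0.041.) This leaves 93.8% of the vehicle level, where Socs3 had 60.8%. It lay between -0.11 and -0.082 with each library left out. Exons of Gm17040 and Gm17041 on the opposite strand overlap 11.5% of the exon bases of Cish, and the library kit is not stated to keep strand, so reads there could belong to either gene.

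Socs2 (ENSMUSG00000020027.18, chromosome 10 from 95385362 to 95417180) encodes a protein best known for limiting the growth hormone signal. It had 90.7 and 86.4 normalized CPM with vehicle and 94.5 and 92.3 with 5D. The 5D libraries lay above the vehicle libraries, but the log2 fold change was 0.076 (SE 0.068, 95% interval -0.073 to 0.23.) Gm8000 and Gm9847 carry stretches at least 95% identical to Socs2 transcripts, the longest of 599 nt, so some reads could be shared. Both genes of the receptor-binding type, Cish and Socs2, thus had small estimates, of opposite sign, at 93.8% and 105% of the vehicle level.

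Socs4 and Socs5, which form the pair best known for acting on the EGF receptor, had low levels. Socs4 (ENSMUSG00000048379.9, chromosome 14 from 47276931 to 47296102) had 18.5 and 23.4 normalized CPM with vehicle and 19.9 and 21.9 with 5D. The 5D libraries lay inside the range of the vehicle libraries, and the log2 fold change was -0.0011 (SE 0.14.) Socs5 (ENSMUSG00000037104.9, chromosome 17 from 87107679 to 87137839) had 5.08 and 5.15 with vehicle and 3.13 and 5.53 with 5D, from 85 to 158 counts per library. Its 5D libraries differed from each other by 0.82 on the log2 scale, where counting error gives 0.19, and the vehicle libraries fell between them. The log2 fold change of -0.24 had an SE of 0.29 and was 0.11 without 5D replicate 1 and -0.71 without 5D replicate 2. Its 95% interval from -0.86 to 0.39 includes both 0 and a difference as large as that of Socs3.

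Socs6 and Socs7 encode a pair of related proteins known for adaptor roles in insulin and growth factor signaling. Socs6 (ENSMUSG00000056153.15, chromosome 18 from 88665224 to 88927481) had 28.3 and 20.99 normalized CPM with vehicle and 25.2 and 29.9 with 5D. The groups overlapped, the log2 fold change was 0.16 (SE 0.15), and its sign turned to -0.042 without vehicle replicate 2. Gm9449 carries a stretch of up to 1006 nt that is nearly identical to Socs6. Socs7 (ENSMUSG00000038485.5, chromosome 11 from 97362551 to 97398542) had 6.16 and 6.60 with vehicle and 5.05 and 4.83 with 5D, all 4 from 132 to 143 counts. Its 5D libraries lay below its vehicle libraries, with a log2 fold change of -0.37, a standard error of 0.21 and a 95% interval from -0.84 to 0.10. The replicates of Socs7 lay closer together than counting error alone gives, with log2 ratios of 0.099 and -0.065 against 0.17, so the gap between its groups rests on few counts.

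**Figure D3:**
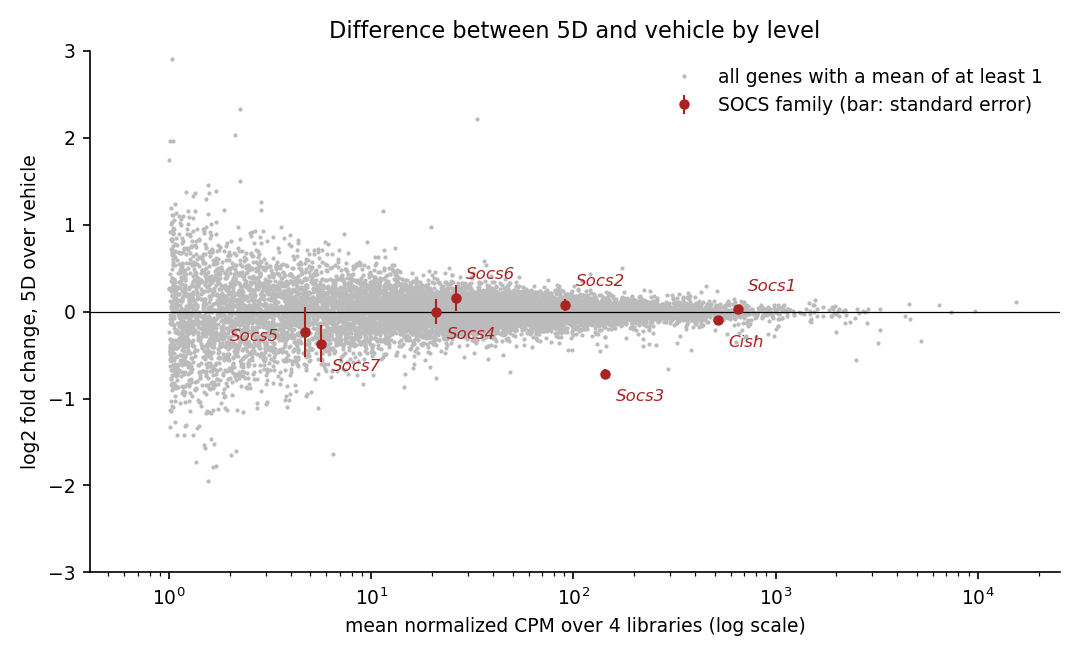
Log2 fold change of 5D over vehicle against the mean normalized CPM over the 4 libraries (log axis) for 12331 genes with a mean of at least 1 (gray) and for the 8 SOCS family genes (red, bars are standard errors). Socs3 at -0.72 lies outside the gray cloud at its level, the other well-expressed members Socs1, Cish and Socs2 lie near 0, and Socs5 and Socs7 lie in the wider part of the cloud at low levels.

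The 5 genes whose profile over the 4 libraries was most like that of Socs3, among the 8737 genes with a mean of at least 10 normalized CPM, were Lif, Ifitm2, Cited2, Myo9a and Idh1. Likeness was measured as the root mean square difference between log2 profiles after centering each on its mean, and it was 0.093 for Lif, 0.10 for Ifitm2, 0.11 for Cited2, 0.11 for Myo9a and 0.12 for Idh1. Lif, a cytokine that signals through gp130, had 18.6 and 18.8 normalized CPM with vehicle and 10.6 and 9.93 with 5D, and was the only gene within 0.1. Ifitm2 had 33.4 and 34.1 with vehicle and 23.4 and 23.5 with 5D. Cited2, a transcriptional cofactor, had 42.5 and 47.4 with vehicle and 32.2 and 29.6 with 5D. All 5 genes are thus lower in both 5D libraries, which their likeness to Socs3 fixes.

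Genes that send, receive and pass on the signals that SOCS proteins inhibit were read from the same fit. Lists of 114 such genes held 110 genes of the table, of which 103 were tested. At the adjusted threshold 1 was lower and 0 were higher, beside 0.0680% and 0.0283% of all genes. DESeq2's Wald test gave no adjusted value for 28 of the 103, Il9, Lif, Il6 and Bcl6 among them, and of the other 75 2 passed, Il2ra and Pim1, and with limma-voom 3 passed, Il2ra, Il9 and Lif. At an unadjusted p-value under 0.05, 20 were lower and 4 higher, beside the 3.84% and 3.50% of all genes. The gene past the adjusted threshold was Il9, a cytokine that ILC2s make, which had 11.7 and 7.84 normalized CPM with vehicle and 3.28 and 3.01 with 5D. It fell by 1.64 on the log2 scale (SE 0.25, edgeR adjusted p = 0.0314). Its adjusted p-value lay between 2.13e-08 and 0.109 over the alternatives that gave one, and was 0.0517 without 5D replicate 1, 0.109 without 5D replicate 2 and 0.0877 in thinned libraries.

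Among the 14 cytokine ligands tested that signal through JAK and STAT, 10 had lower estimates and the median was -0.12. At an unadjusted p-value 6 were lower, beside 3.84% of all genes, and 2 higher, beside 3.50%. Il5, Il6, Il9, Lif and Osm were among the lower and Csf2 among the higher. The others were Il21 and Il15, which were below 1 normalized CPM. Lif had a log2 fold change of -0.87 (SE 0.14, edgeR adjusted p = 0.0642), which was 0.0399 with limma-voom. Over the alternatives with an adjusted p-value it lay between 0.0027 and 0.279. Osm, the gene of oncostatin M, which also signals through gp130, had 114 and 111 normalized CPM with vehicle and 91.2 and 96.6 with 5D, a log2 fold change of -0.26 (adjusted p = 0.366 from edgeR). Il6, the third ligand of that receptor chain on the list, was scarce, with 71 and 35 counts with vehicle and 23 and 39 with 5D (log2 fold change -1.12, SE 0.43, edgeR adjusted p = 0.598). In normalized CPM, the 5D libraries lay below the vehicle libraries for Lif, Osm and Il6. For Il6 this was 3.06 and 1.75 with vehicle and 0.848 and 1.36 with 5D, whereas its counts before scaling overlapped. Il5 had a log2 fold change of -0.084 and Csf2, the gene of GM-CSF, 0.16, and edgeR's adjusted p was 0.552 and 0.487. The gp130 receptor chain itself, Il6st, was low at 10.5 and 13.5 normalized CPM with vehicle and 13.9 and 13.1 with 5D, and its groups overlapped. It is named because SOCS3 acts on it, after its values were seen. The listed receptor genes Il6ra, Lifr and Osmr were not among the 21 receptor genes at a mean of at least 1 normalized CPM. They too are named after their values were seen.

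Of 26 receptor chains tested, 15 had lower estimates, with a median of -0.020, and 0 passed the adjusted threshold with edgeR, 1 with DESeq2, which had adjusted values for 15 of them, and 1 with limma-voom, Il2ra in both. At an unadjusted p-value 6 were lower, beside 3.84% of all genes, and 0 higher, beside 3.50%, and 4 of the 6 had a mean of at least 1 normalized CPM, the other two being Osmr and Csf3r. Il2ra, the alpha chain of the IL-2 receptor, had 2221 and 2068 normalized CPM with vehicle and 1771 and 1874 with 5D. Its log2 fold change was -0.23 (SE 0.042, edgeR adjusted p = 0.0878, and between 2.89e-06 and 0.186 over the alternatives). Il2rb, the beta chain of the same receptor, had a log2 fold change of -0.16 (adjusted p = 0.443), Il4ra had -0.17 (adjusted p = 0.552) and Il10ra had -0.21 (adjusted p = 0.530, all from edgeR). In each of these 4 genes, also named for an unadjusted p-value, the 5D libraries lay below the vehicle libraries, as in 18.8% of all genes. Among the 6 genes of the IL-33 receptor and its adaptors, Traf6 had a log2 fold change of -0.28 and Il1rl1, the IL-33 receptor chain ST2, had 0.12, and edgeR's adjusted p was 0.566 and 0.621.

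The kinases and factors between receptor and gene showed small differences. For the 4 JAK kinases the median log2 fold change was 0.034, with 0 past the adjusted threshold by edgeR, DESeq2 or limma-voom and 0 at an unadjusted p-value with edgeR. Jak1 had 562 and 516 normalized CPM with vehicle and 552 and 562 with 5D, and Jak3, the partner of the common gamma chain, had 444 and 456 with vehicle and 429 and 420 with 5D. For the 7 STAT factors the median was 0.029, and 0 passed by any of these 3 tools. Stat4 had 70.9 and 73.2 with vehicle and 79.1 and 87.3 with 5D (log2 fold change 0.21, SE 0.077, edgeR adjusted p = 0.568) and was the only STAT gene past an unadjusted p-value. The 10 genes listed around the SOCS box, which are E3 ligase and NEDD8 genes, had log2 fold changes between -0.11 and 0.055. Of the 10, 0 passed at an adjusted p-value by the 3 tools or at an unadjusted one by edgeR. Of these, Elob had 333 and 337 normalized CPM with vehicle and 350 and 340 with 5D, and Rbx1 had 298 and 310 with vehicle and 294 and 310 with 5D.

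Other inhibitors of cytokine signaling outside the family, namely phosphatases, PIAS proteins, adaptors, Cbl ligases, Sprouty and ERK phosphatase genes, had a median log2 fold change of 0.015 over 19 genes, 9 of them with lower estimates. By edgeR and limma-voom 0 passed the adjusted threshold, as did 0 of the 14 with an adjusted value in DESeq2. At an unadjusted p-value 2 were lower, beside 3.84% of all genes, and 0 higher, beside 3.50%. These were Cbl, a ubiquitin ligase, at -0.22 (SE 0.096, edgeR adjusted p = 0.641), and Spry1, an inhibitor of the ERK pathway, at -0.24 (SE 0.068, edgeR adjusted p = 0.487).

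Further known targets of STAT5 and STAT3 were listed, with earlier results of these data known, to set beside Cish and Socs3. Their directions are therefore a description. All 11 STAT5 targets outside the family had lower estimates, where 50.4% of all genes did. This held with TMM normalization and with DESeq2's size factors in the same libraries. With 1 library left out or the libraries thinned, 9 to 11 were lower. The estimates of Myc, Mcl1, Ccnd2 and Bcl2 lay within their standard error of 0. The median of the 11 was -0.083, where all genes had -0.0016. At an unadjusted p-value 5 were lower, beside 3.84% of all genes, and 0 higher, beside 3.50%. With edgeR 0 passed the adjusted threshold, while 2 did with DESeq2, which gave no adjusted value for Lif, and 2 with limma-voom. Besides Il2ra, Lif and Osm, which are on this list too, Pim1, a survival kinase, had 397 and 371 normalized CPM with vehicle and 337 and 329 with 5D. This is a log2 fold change of -0.20 (SE 0.049, edgeR adjusted p = 0.356, and between 0.0189 and 0.724 over the alternatives). Pim2 had -0.19 (adjusted p = 0.668 from edgeR). Of the 11 STAT3 targets, 9 had lower estimates, the median was -0.15, and 0 passed the adjusted threshold by edgeR or limma-voom, nor did any of the 9 with an adjusted value in DESeq2, which left out Bcl6 and Ccnd1. At an unadjusted p-value 3 were lower, beside 3.84% of all genes, and 0 higher, beside 3.50%. These were Junb at -0.17 (SE 0.050), Batf at -0.18 (SE 0.069) and Bcl6 at -1.32 (SE 0.48), for which edgeR's adjusted p was 0.517, 0.583 and 0.566. Bcl6 had 49 and 26 counts with vehicle and 19 and 19 with 5D. The log2 fold change of Socs3 lay below those of all STAT5 and STAT3 targets except Lif, Bcl6 and Ccnd1, and Ccnd1 had a mean below 1 normalized CPM.

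**Figure D4:**
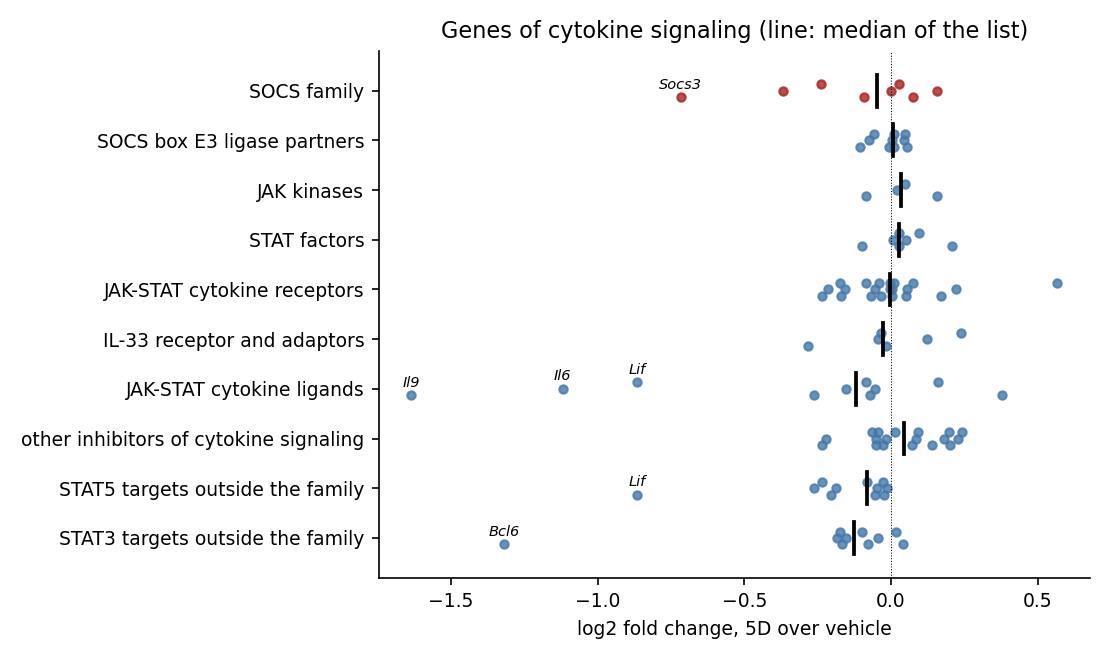
Log2 fold change of 5D over vehicle for the 8 SOCS family genes (red) and for genes of 9 lists of cytokine signaling with a mean of at least 1 normalized CPM (blue), with a line at the median of each list; a gene on 2 lists is drawn in both, and names are given below -0.6. Socs3 stands apart from the other family members, Il9, Il6 and Lif from the other ligands and Bcl6 from the other STAT3 targets, while the JAK kinases, STAT factors and SOCS box partners lie within 0.21 of 0.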

How the data were processed

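The authors aligned reads with STAR 2.6.1d to mm10 with GENCODE M21 in Partek Genomics Suite and deposited estimated counts per gene before normalization. Of the values per library, 51.7% to 54.8% were whole numbers (within 1e-06), and all were rounded here. Counts were scaled by the upper quartile, 4904 genes whose normalized counts averaged below 1 or summed to below 10 were left out, and 17650 were tested with edgeR 4.0.16 in R 4.3.3 by its quasi-likelihood test, two-sided, with Benjamini-Hochberg adjustment, in place of Partek's Gene Set Analysis. Alternatives used limma 3.58.1 and DESeq2 1.42.0, other scalings (TMM, DESeq2 size factors, without mitochondrially encoded genes), other filters, a replicate block and each library left out, and, added after seeing the data, thinned libraries and counts not rounded. The code was tested on simulated data.

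Groups follow the sample titles. Members and lists were chosen with earlier results of these data known. Named genes were all members, listed genes with an adjusted p-value under 0.05 or an unadjusted one with a mean of at least 1 normalized CPM, otherwise the 2 with the highest level of a list, and the 5 genes with the profile most like that of Socs3. At 2 against 2 libraries the smallest p of an exact permutation test is 0.333, so none was made. BLAST 2.17.0 looked for near-identical genes (at least 150 nt at 95% identity). Coordinates are from GENCODE M21, and the deposited start of Socs7 is 97362435. Proteins were not analysed here.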

Additional observations from a re-analysis of the deposited data

How the results depend on the processing

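The log2 fold change of Socs3, on which the family was chosen, lay between -0.78 and -0.66 over 14 alternatives of the same libraries, which is a description and no independent support. Cish, Socs2 and Socs7 kept their direction under all 14, whereas Socs1, Socs5 and Socs6 each turned with 1 library left out and Socs4, next to 0, under 5 alternatives. The genes called over the whole table, 17 in the analysis reported, were 58 with DESeq2's Wald test, 32 with limma-voom, 46 without a filter, 26 with filterByExpr and 41 with the replicate block. With 1 library left out they were 15 to 180. The highest count came without vehicle replicate 1, and it was 79 without vehicle replicate 2. The lone library of a group is then assumed to vary like the pair of the other. Of the pathway genes, 1 was called, against 2 with DESeq2 (of 75 with an adjusted value) and 2 with filterByExpr, 3 with limma-voom, without a filter and with the replicate block, and 0 to 4 with 1 library left out. In libraries thinned to the smallest total, chosen after seeing the data, 6 genes were called over the table and 0 pathway genes. The family median lay between -0.14 (without vehicle replicate 1) and 0.045 (without 5D replicate 1). With the longest transcript as the length, 4 members kept their rank by level, and 8 did with TMM. The log2 fold change of Rbx1, below 0 in the analysis reported, was 0.0023 with TMM and -0.047 to 0.026 with a library left out, and that of Jak1, above 0, was then -0.014 to 0.11. Deviations of same-numbered libraries from their group means had a correlation of 0.016 over 12331 genes. With 2 libraries in each group this value cannot decide whether the numbers pair them. The cause of these shifts was not tested. Socs5 and Socs7 had 85 to 158 counts per library, and their standard errors of 0.29 and 0.21 exceed the difference seen for Cish. In Socs5 the 5D libraries differed by 0.82 on the log2 scale, against 0.19 from counting error. That error takes each read as an independent molecule, and the cause of the spread was not tested.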
